A study of Mus musculus with 6 samples.

Results

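miR-101a and miR-101b are the 2 mouse members of the miR-101 family that the array carries, out of 334 mouse microRNA probes. They were picked out by name: non-control probes whose annotation lists mmu-miR-101a or mmu-miR-101b. The choice was made with earlier results of these data known. Their levels were followed in day 7 embryoid bodies, clusters of embryonic stem cells grown in suspension that start to form early tissues. The stem cells were of strain 129S7/SvEv Brd-Hprt b-m2 and carried human BRCA1, per the labels, in 1 of 3 forms: wild-type (WT), M1652I (MI) or R1699Q (RQ). Each group had 2 arrays, numbered replicates 1 and 2, which the labels call biological replicates without saying whether they came from separate cultures, so p-values measure only how far these samples differ from each other, and that spread may be technical. Each array had 2 colours. The group's RNA was in Cy3 and a control RNA in Cy5, labelled as embryoid bodies with wild-type BRCA1, on all 6 arrays, and the dyes were never swapped. The sources used here give neither how the human gene was introduced nor whether a group is 1 clone.

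MicroRNAs are short RNAs that pair with messenger RNAs, mainly through the seed near their 5′ end, and lower the output of those messages. miR-101 is known as a repressor of Ezh2, the methyltransferase subunit of Polycomb repressive complex 2, which keeps developmental genes silent in stem cells by methylating histone H3. Both M1652I and R1699Q lie in the BRCT repeats at the C-terminal end of BRCA1, a protein of DNA repair.

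The mature sequences are shown because they set what each probe can tell apart. In RefSeq (GRCm38.p6) the mature miR-101a lies at chr4:101346957-101346977 on the minus strand, in the hairpin at chr4:101346945-101347027, and the gene E130102H24Rik spans that place. The mature miR-101b lies at chr19:29135338-29135356 on the plus strand, in the hairpin at chr19:29135279-29135375, within the span of Rcl1. Capitals mark the 7 bases that are bases 2 to 8, the seed, of miR-101a, or the first 6 of them in miR-144.
miR-101a: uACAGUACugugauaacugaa
miR-101b: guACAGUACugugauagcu
miR-101c: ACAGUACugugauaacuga
miR-144: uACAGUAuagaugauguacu

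The RefSeq entry of miR-101b begins 1 base before that of miR-101a, with a G, so the same 7 bases stand at positions 3 to 9. Over the 18 bases that both entries cover, the 2 microRNAs differed at 1, A16G, counted from the 5′ end of miR-101a. All 19 bases of miR-101c lie within miR-101a, at its bases 2 to 20, so the miR-101a probe cannot separate them. Of the 294 probes tested, 239 held the complement of the first 16 bases of a RefSeq mature microRNA, and among these only miR-144 shared bases 2 to 7 with miR-101a. miR-144 differed from miR-101a at 12 of 20 bases overall.

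The hairpins, of 83 and 97 bases, are shown to place the mature microRNA (capitals) in its precursor.
miR-101a hairpin: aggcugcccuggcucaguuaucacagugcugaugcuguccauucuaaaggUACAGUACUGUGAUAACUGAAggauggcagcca
miR-101b hairpin: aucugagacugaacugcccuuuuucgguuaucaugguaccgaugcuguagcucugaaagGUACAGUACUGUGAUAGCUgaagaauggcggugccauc

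The probes are 60 bases long, and capitals mark the complement of the RefSeq mature microRNA.
miR-101a probe: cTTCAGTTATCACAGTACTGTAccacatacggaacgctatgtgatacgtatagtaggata
miR-101b probe: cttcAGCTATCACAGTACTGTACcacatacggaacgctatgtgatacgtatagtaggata

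The probes differed at 1 of 60 bases, T7C, counted from the 5′ end of the miR-101a probe. How far each probe also bound the other microRNA was not tested.

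All arrays sat on 1 slide scanned once. The WT pair occupied one slide row and the 4 mutant arrays the next, so row and WT against mutant cannot be told apart. In Cy3, 241 to 255 of 334 mouse microRNA probes were well above background, and in Cy5 262 to 271. Net Cy3 on negative control spots was 93.0 and 102.8 on the RQ arrays and 43.8 to 59.4 on the other arrays. Of 7 stem cell markers present, all 7 were clearly above background in Cy3 on each array, while in Cy5 2 were so on all arrays and 4 on at least 1. Of 3 blood markers, 1 was above background in Cy3 and all 3 in Cy5. Marker detection thus differed between the control channel and that of the WT group, although both are labelled as wild-type embryoid bodies. Without a dye swap, a difference of dye and one of RNA cannot be told apart. The single liver marker, 2 of 3 neural markers and both muscle markers were above background in Cy3 on every array. In Cy5 the liver marker, all 3 neural markers and both muscle markers were. Whether the difference between the channels bears on the ratios below was not tested.

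Both members were well detected in every sample. All 24 spots of each probe were well above background in both channels, and none was saturated. 1 spot of miR-101a on RQ replicate 1 was marked as an outlier by the scanner software and was left out of the values below. Net signal is the mean spot brightness minus the median local background, in scanner units.

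For miR-101a, net Cy3 was 1214 and 884 on WT replicates 1 and 2, 810.0 and 979 on the MI arrays, and 1148 and 1117 on the RQ arrays. The WT arrays spanned the values of both RQ arrays, and the lower WT array lay between the MI arrays, so the 3 groups did not separate on raw signal. For miR-101b, net Cy3 was 946 and 709 on the WT arrays, 646 and 806 on the MI arrays, and 933 and 854 on the RQ arrays. The order of the arrays was the same as for miR-101a, with WT replicate 1 brightest and MI replicate 1 dimmest.

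Net Cy5, the control RNA, varied less. For miR-101a it was 1668 and 1603 on the WT arrays, 1646 and 1674 on the MI arrays, and 1552 and 1457 on the RQ arrays. For miR-101b it was 1145 and 1133 on the WT arrays, 1202 and 1274 on the MI arrays, and 1172 and 1073 on the RQ arrays. Cy5 was above Cy3 for both members on every array, WT included: the net Cy3 over Cy5 ratio ran from 0.492 to 0.766 for miR-101a and from 0.537 to 0.826 for miR-101b.

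**Figure D1:**
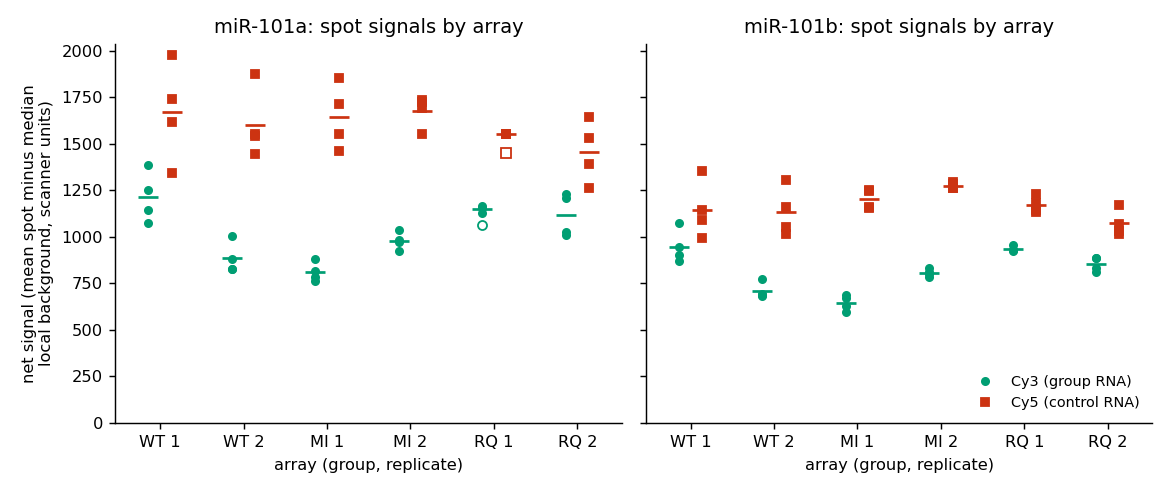
Net signal (y axis, scanner units, from 0) of each spot of miR-101a (left) and miR-101b (right) on the 6 arrays (x axis), Cy3 as circles and Cy5 as squares, with a line at the mean and an open symbol for the outlier spot. Cy5 means lie above Cy3 means on every array, and Cy3 of miR-101a runs from 810.0 on MI replicate 1 to 1214 on WT replicate 1.

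Set over the median of the tested probes on the same array, Cy3 of miR-101a was 5.00 and 4.79 times that median in WT, 4.79 and 4.77 times in MI, and 4.42 and 4.84 times in RQ. The RQ arrays overlapped the other groups on this scale. For miR-101b the same quantity was 3.90 and 3.84 in WT, 3.82 and 3.93 in MI, and 3.60 and 3.70 in RQ. Here both RQ arrays lay below the other 4. How many of the tested probes did the same was not counted.

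The question set by the design is whether either BRCA1 change alters these microRNAs. It was tested on log2 Cy3 over Cy5 after loess, a curve fitted on each array that removes the part of the ratio that follows brightness. The test was limma's moderated fit over all 294 tested probes, and a probe was called at a Benjamini-Hochberg adjusted p under 0.05.

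miR-101a and miR-101b both fell in RQ embryoid bodies against WT by this measure, and neither passed the test in MI against WT or in RQ against MI. For miR-101a the normalised log2 ratio was 0.47 and 0.74 on the WT arrays, -0.08 and 0.23 on the MI arrays, and -0.72 and -0.32 on the RQ arrays. By this measure the mean was highest in WT and lowest in RQ. The group means were 0.61 ± 0.19 (SD, n = 2) in WT, 0.08 ± 0.22 in MI and -0.52 ± 0.28 in RQ. The RQ minus WT difference was -1.13 (SE 0.19; 95% interval -1.60 to -0.65; limma adjusted p = 0.0118), a 2.18-fold lower ratio.

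For miR-101b the normalised log2 ratio was 0.36 and 0.44 on the WT arrays, 0.06 and 0.10 on the MI arrays, and -0.58 and -0.22 on the RQ arrays. The means again stood in the order WT, MI, RQ. The group means were 0.40 ± 0.05 (SD, n = 2) in WT, 0.08 ± 0.03 in MI and -0.40 ± 0.26 in RQ. The RQ minus WT difference was -0.80 (SE 0.15; 95% interval -1.16 to -0.44; limma adjusted p = 0.0142), a 1.74-fold lower ratio.

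In RQ minus WT, 21.4% of the tested probes were called, and 13.9% were called lower. Counting from the largest fall, miR-101a ranked 14 and miR-101b 37 of 294. Of the 63 called probes 34.9% were higher with loess, against 70.1% of 67 when each array was only centred on its median.

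Neither member was called between neighbours in the order WT, MI, RQ. MI minus WT was -0.53 for miR-101a (SE 0.19; 95% interval -1.004 to -0.06; limma adjusted p = 0.108). For miR-101b it was -0.32 (SE 0.15; 95% interval -0.68 to 0.04; limma adjusted p = 0.174). In that comparison 15.6% of the tested probes were called. RQ minus MI was -0.59 for miR-101a (95% interval -1.07 to -0.12; limma adjusted p = 0.115) and -0.48 for miR-101b (95% interval -0.84 to -0.12; limma adjusted p = 0.102), with 10.9% of probes called. The intervals are for single probes and are not adjusted, so the 3 that lie below 0 go with adjusted p-values above 0.05. The 2 comparisons against WT share the WT arrays.

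The fall in RQ depended on how the ratio was scaled. Before loess, the mean log2 ratio of miR-101a was -0.65 ± 0.28 (SD, n = 2) in WT, -0.90 ± 0.17 in MI and -0.43 ± 0.03 in RQ, so RQ lay 0.21 above WT. The loess curve at this probe's brightness subtracted -0.92 and -1.59 on the WT arrays, -0.93 and -1.01 on the MI arrays, and 0.26 and -0.09 on the RQ arrays. The subtracted amount thus differed by 1.34 between RQ and WT, more than the whole reported difference.

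miR-101b gave the same picture. Its mean log2 ratio before loess was -0.47 ± 0.28 (SD, n = 2) in WT, and -0.78 ± 0.16 and -0.36 ± 0.01 in MI and RQ, with RQ 0.11 above WT. The curve subtracted -0.63 and -1.10 on the WT arrays, -0.96 and -0.77 on the MI arrays, and 0.22 and -0.15 on the RQ arrays, a difference of 0.90 between RQ and WT. Both members lay in a range of brightness where the WT and MI curves dip and the RQ curves lie close to 0.

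**Figure D2:**
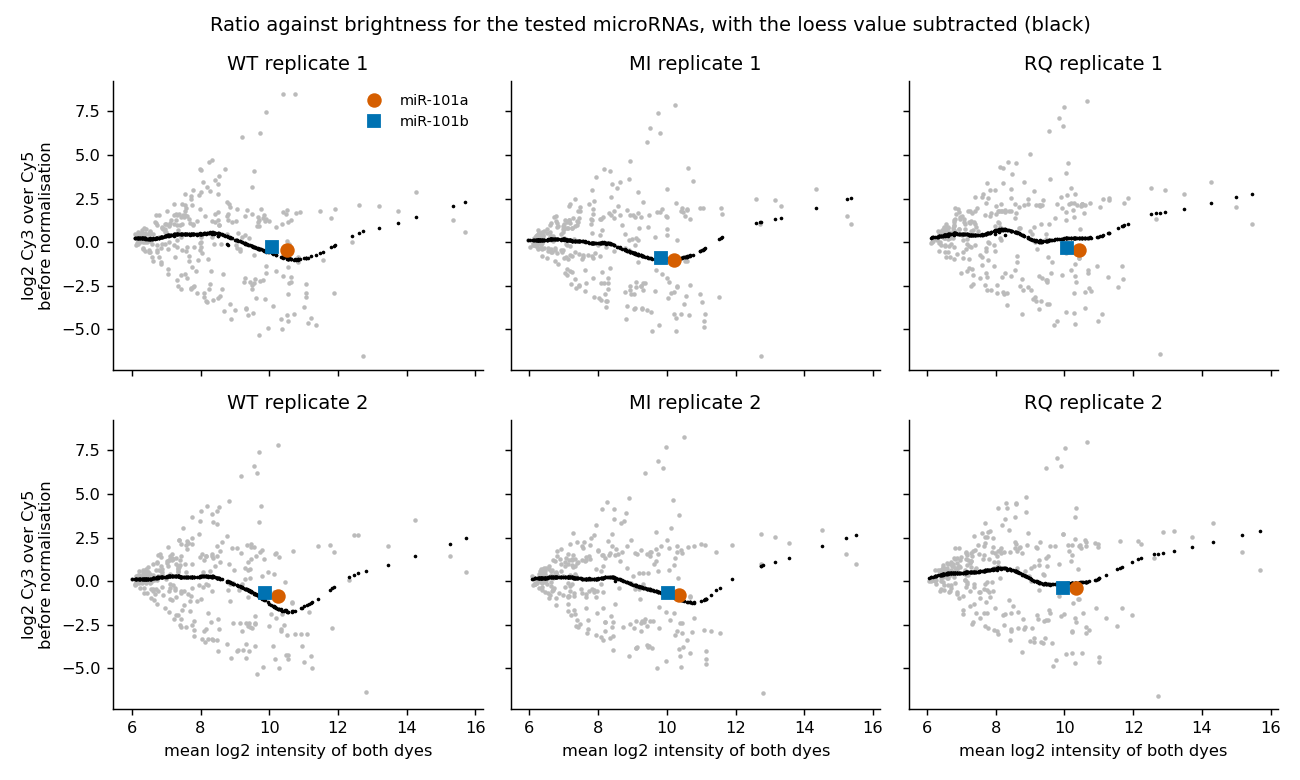
log2 Cy3 over Cy5 before normalisation (y axis) against the mean log2 intensity of both dyes (x axis) for the 294 tested probes on each array (grey), with the value loess subtracted from each probe in black and the 2 members marked. At the miR-101a probe the subtracted value is -0.92 and -1.59 on the WT arrays and 0.26 and -0.09 on the RQ arrays.

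With each array centred on its median in place of loess, the log2 ratio of miR-101a was -0.75 and -0.99 on the WT arrays, -1.15 and -1.01 on the MI arrays, and -0.93 and -0.90 on the RQ arrays. Both RQ arrays then fell between the WT arrays, and RQ minus WT was -0.04 (limma adjusted p = 0.824). For miR-101b the median-centred values were -0.58 and -0.81 in WT, -1.03 and -0.90 in MI, and -0.84 and -0.86 in RQ. RQ minus WT was then -0.15 (limma adjusted p = 0.364), and RQ minus MI turned positive for both members, at 0.16 and 0.12.

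In the authors' deposited value table, turned to log2, miR-101a was -0.96 and -1.34 on the WT arrays, -1.69 and -1.54 on the MI arrays, and -2.03 and -1.72 on the RQ arrays. The order WT, MI, RQ was that of the loess values. limma on that table gave RQ minus WT of -0.73 for miR-101a (adjusted p = 0.0552) and -0.82 for miR-101b (adjusted p = 0.0470). The median of all tested probes was -0.26 in that table, and relative to it the differences were -0.47 and -0.55.

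In Cy3 alone, quantile-normalised between arrays, miR-101a was 10.30 and 10.15 on the WT arrays, 9.998 and 10.03 on the MI arrays, and 9.72 and 9.97 on the RQ arrays (log2). RQ minus WT was -0.38 (limma adjusted p = 0.0787). For miR-101b the values were 9.87 and 9.83 in WT, 9.73 and 9.77 in MI, and 9.47 and 9.62 in RQ, with RQ minus WT of -0.31 (limma adjusted p = 0.0716). Cy3 alone thus placed RQ below WT for both members, by less than the ratio did and without a call. The median RQ minus WT of all tested probes was -0.096 in Cy3 alone, and relative to it the differences were -0.29 and -0.21.

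**Figure D3:**
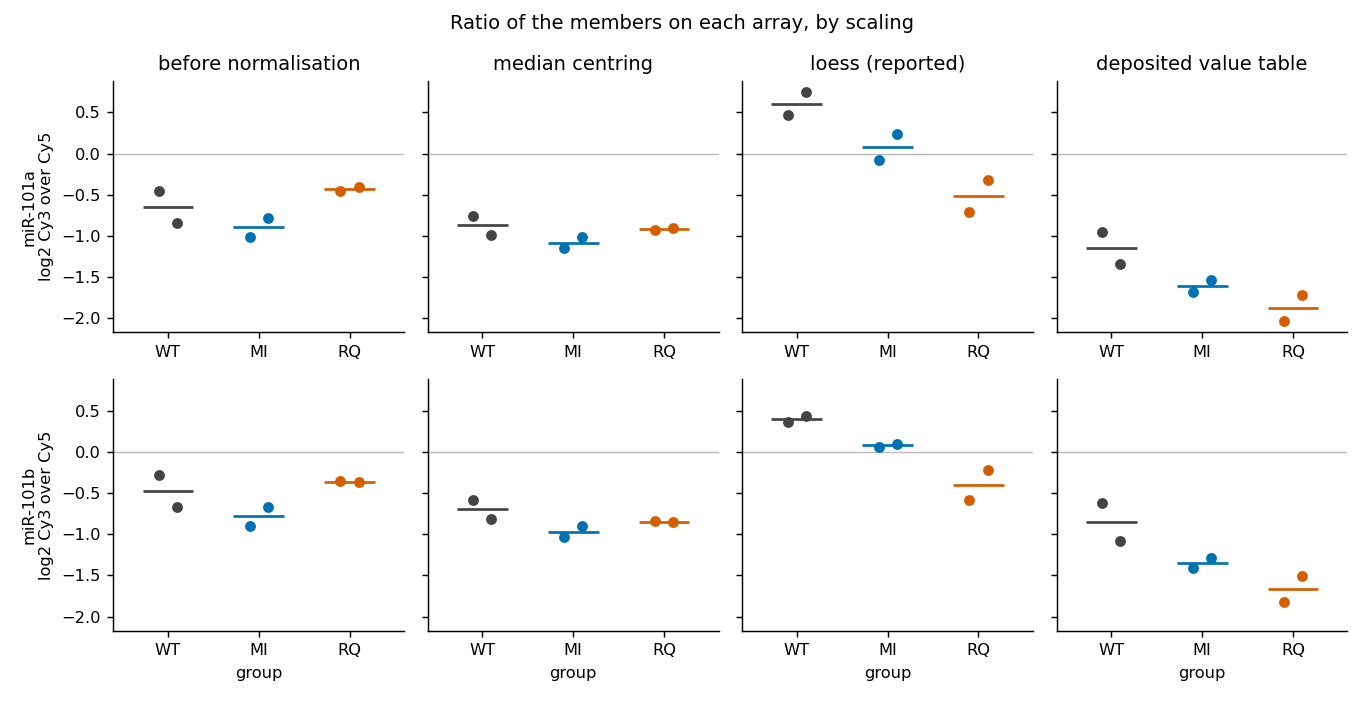
log2 Cy3 over Cy5 (y axis) of miR-101a (top) and miR-101b (bottom) on each array, by group (x axis), before normalisation, with median centring, with loess and in the deposited value table; points are arrays and lines group means. RQ lies below WT with loess (-0.52 against 0.61 for miR-101a); with median centring the RQ arrays of miR-101a lie between the WT arrays, and those of miR-101b (-0.84 and -0.86) just below them (-0.58 and -0.81).

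The control channel was not level either. Quantile-normalised Cy5 of miR-101a was 0.22 higher (log2) on the RQ arrays than on the WT arrays and 0.23 higher on the MI arrays, with a pooled SD of 0.06 between arrays of a group. For miR-101b it was 0.28 and 0.29 higher, with a pooled SD of 0.07. As net Cy5 over the array median the RQ minus WT differences were -0.03 and 0.07 (log2), so the size of this shift depended on the scaling too.

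The call also depended on 1 array, RQ replicate 1, which had 99 outlier spots against 60 to 66 on the other arrays. Without RQ replicate 1, RQ minus WT was -0.93 for miR-101a and -0.61 for miR-101b, and neither was called. Calls over all probes fell too in that fit, and the adjusted p depends on all of them. So the loss of the call does not rest on the members' own ratios alone. Without RQ replicate 2 or either WT array, RQ minus WT was -1.32 to -0.99 for miR-101a and -0.98 to -0.76 for miR-101b. Leaving out an MI array does not move RQ minus WT. miR-101b was also not called with loess fitted on bright probes, at -0.70 (limma adjusted p = 0.153), where miR-101a was, at -1.11 (limma adjusted p = 0.0107). With that same fit MI minus WT of miR-101a passed the test, at -0.72 (limma adjusted p = 0.0463).

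**Figure D4:**
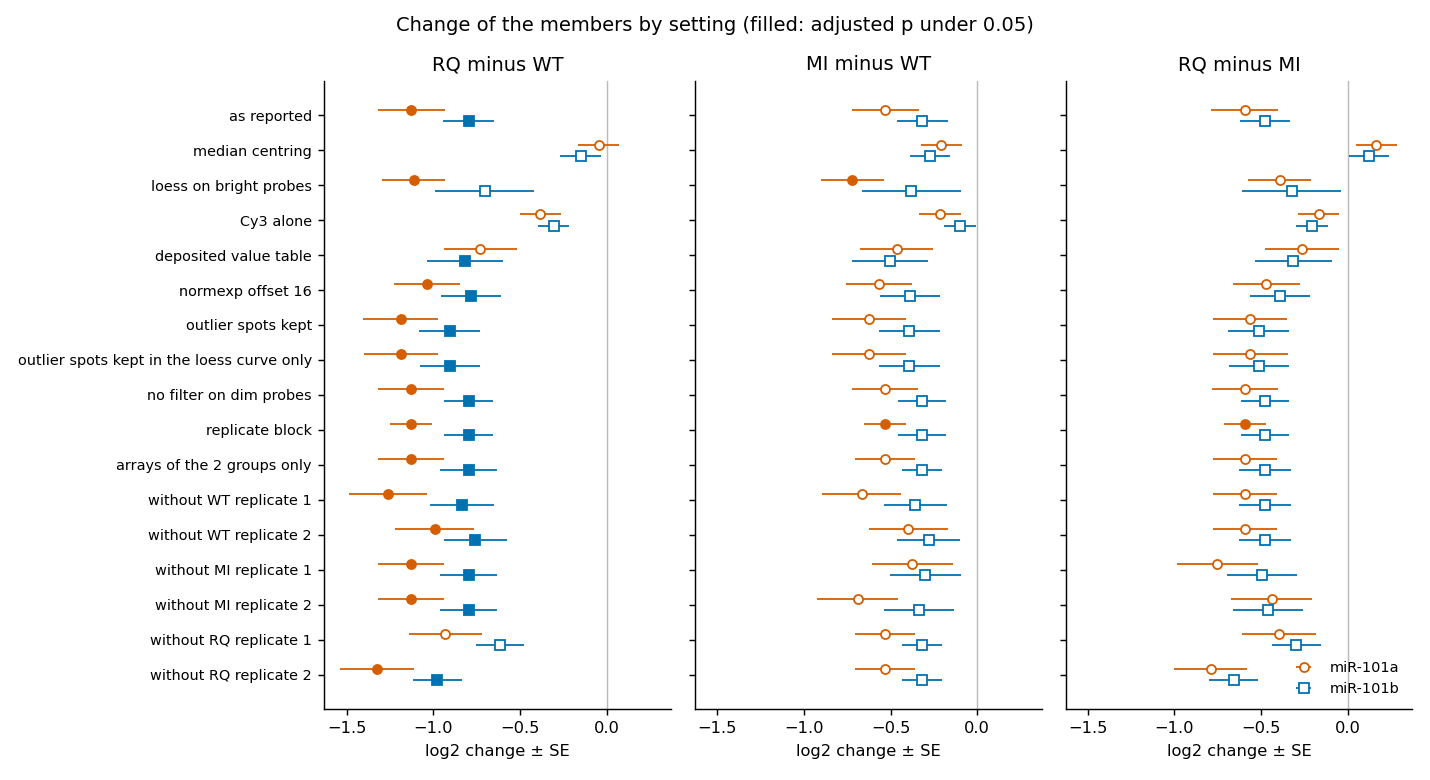
log2 change ± SE (x axis) of miR-101a (circles) and miR-101b (squares) in the 3 comparisons under each setting (y axis), filled where the limma adjusted p is under 0.05. RQ minus WT is below 0 in every setting, from -1.32 to -0.04 for miR-101a, and RQ minus MI is above 0 with median centring.

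The 2 members varied together across the arrays. Their log2 ratios correlated at r = 0.978 over the 6 arrays, which share the control RNA, the slide and loess curves fitted on the same probes. The 2 probes differ at only 1 of 60 bases, and how far each also bound the other microRNA was not tested. The ratio of miR-101b minus that of miR-101a was -0.11 and -0.31 on the WT arrays, 0.14 and -0.13 on the MI arrays, and 0.14 and 0.11 on the RQ arrays. RQ lay above WT in this quantity by 0.33, but an exact two-sided permutation test gave p = 0.333, the smallest that 2 against 2 arrays allow. The MI minus WT value was 0.21 (exact p = 0.667) and the RQ minus MI value 0.12 (exact p = 1). miR-101a differed more between replicates than miR-101b did in WT, by 0.27 against 0.08, and in MI, by 0.31 against 0.04. In RQ the gaps were 0.39 and 0.36, where the median gap of all tested probes was 0.14.

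The probes whose loess ratio was most like that of miR-101a over the 6 arrays were miR-21 (Pearson r = 0.991), miR-23a (0.983), miR-30c (0.981), miR-125b (0.980) and miR-23b (0.979), and miR-101b came sixth in that order. For miR-101b they were miR-101a (0.978), miR-23a (0.976), miR-21 (0.963), miR-125b (0.960) and miR-30c (0.952). Each comes from 293 probes compared over 6 arrays and is a description. RQ minus WT of these other microRNAs ran from -1.39 for miR-125b to -0.92 for miR-23b. They were picked for their correlation over the same 6 arrays, so sharing the members' sign adds no support. With median centring miR-23a, miR-23b and miR-30c turned positive.

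miR-144, the one microRNA found to share bases 2 to 7 with miR-101a among the probes matched to a RefSeq sequence, gave no group signal to compare. In Cy3, 0 of its 4 spots were well above background on each of the 6 arrays, while all 4 were so in Cy5, where net signal was 289 to 355. miR-144 is a microRNA of red blood cell precursors.

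Other microRNAs known to repress Ezh2 formed a list of 18, of which 17 were tested; 1 of these, miR-137, was tested through Cy5 only, with Cy3 above background on 0 arrays, and is counted among those not called. In RQ minus WT, 4 of the 17 fell and none rose, with a median of 0.07 against 0.03 over all tested probes. Those that fell were miR-26a at -1.41 (SE 0.13; limma adjusted p = 0.00808), let-7a at -1.02, let-7f at -0.92 and let-7g at -0.85 (limma adjusted p = 0.0471 for each let-7). The let-7 family is known for rising as stem cells differentiate, and its near-identical members can share a probe's signal. The share of 4 in 17 lies close to the 21.4% of all probes called in either direction, while 13.9% were called lower. The direction depended on the scaling: with median centring 6 of the 17 rose and none fell, and let-7a, let-7f and let-7g turned positive. Over the 10 alternatives other than the fits without 1 array, 0 to 5 of the 17 fell and 0 to 6 rose. miR-26a was called in 9 of these 10, each but median centring, while let-7a, let-7f and let-7g were called in 3, 4 and 3. Of the fits that leave out 1 array, those without an array of the group not compared repeat the fit on the arrays of the 2 groups only. With each array left out in turn, miR-26a was called in all 6 fits, and let-7a, let-7f and let-7g in 3, 2 and 1 of them.

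In MI minus WT, miR-26a (-1.38; limma adjusted p = 0.00375) and miR-26b (-1.23; limma adjusted p = 0.0114) fell and miR-214 rose (0.72; limma adjusted p = 0.0137), with 14 of 17 not called, where 15.6% of all probes were called. Both miR-26 calls held in all 10 alternatives other than the fits without 1 array, and that of miR-214 in 7. With each array left out in turn, miR-26a, miR-26b and miR-214 were called in 6, 4 and 3 of the 6 fits. The list's median was -0.003 against 0.11 over all tested probes. miR-26b, a near copy of miR-26a, was 0.23 in RQ minus WT (limma adjusted p = 0.427) and rose by 1.46 in RQ minus MI (limma adjusted p = 0.0146). In RQ minus MI let-7g (-1.07) and miR-214 (-0.59) fell (limma adjusted p = 0.0370 for each), where 10.9% of all probes were called. Of the 10 alternatives other than the fits without 1 array, let-7g was called in 6 and miR-214 in 3. miR-214 turned positive with median centring and in Cy3 alone. With median centring 4 of the 17 rose and none fell. Among the fits that left out 1 array, let-7g, miR-214 and miR-26b were each called only in those without a WT array. WT is not compared here, so those fits repeat the fit on the arrays of the 2 groups only. With an MI or RQ array left out, miR-26b ran from 1.32 to 1.60. The list's median was -0.16 against -0.10. miR-26a was -0.03 in that comparison (limma adjusted p = 0.885).

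The second list held 9 microRNAs known to repress other Polycomb subunits (Suz12, Bmi1 or Rnf2), all of them tested, of which miR-203 was above background in Cy3 on 0 arrays. In RQ minus WT, miR-181a (0.62) and miR-181b (0.60) rose and miR-16 fell (-1.17), with limma adjusted p-values of 0.0184, 0.0248 and 0.0241, where 21.4% of all probes were called. The median was -0.04 against 0.03 over all tested probes. In MI minus WT the same 2 members of the miR-181 family rose, by 1.28 and 1.06 (limma adjusted p = 0.00375 and 0.00599), and none fell with loess, with a median of 0.22 against 0.11 and 15.6% of all probes called. Over the 10 alternatives other than the fits without 1 array, 0 to 4 of the 9 fell. The number was 4 with median centring and with a normexp offset of 16, and 3 in Cy3 alone and in the deposited value table. In RQ minus MI, 1 of the 9 fell, miR-181a at -0.65, where 10.9% of all probes were called, and the median was -0.10, that of all tested probes. That call was lost with median centring and with loess on bright probes. Among the fits that each left out 1 array, it held only in those without a WT array, which is not compared here. The miR-181 calls in MI minus WT held in all 10 alternatives other than the fits without 1 array. They held in 6 and 5 of the 6 fits that each left out 1 array. In RQ minus WT those fits called miR-181a in 4, miR-181b in 2 and miR-16 in 2. In RQ minus WT none of the 9 fell and 3 rose with median centring, while 4 fell and none rose in Cy3 alone.

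**Figure D5:**
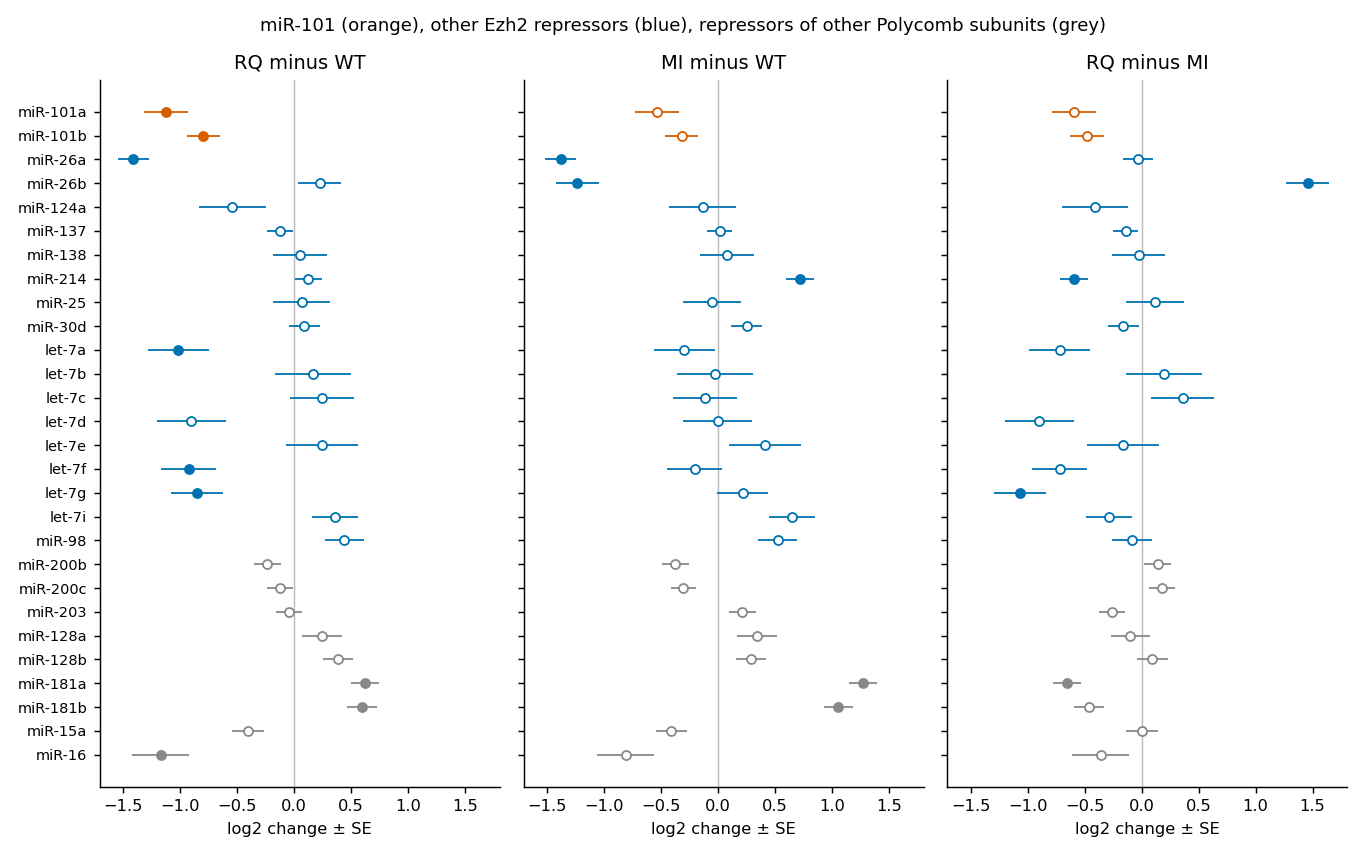
log2 change ± SE (x axis) of miR-101a and miR-101b (orange), the 17 tested other repressors of Ezh2 (blue) and the 9 repressors of other Polycomb subunits (grey) in the 3 comparisons, filled where the limma adjusted p is under 0.05. miR-101a (-1.13) lies beside let-7a (-1.02) and miR-16 (-1.17) in RQ minus WT, while miR-26a is at -1.41 there and at -1.38 in MI minus WT.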

How the data were processed

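MicroRNAs were measured on 6 custom Agilent arrays of 2 colours. Per the labels' protocols, T4 RNA ligase joined the dyes to the 3′ ends of total RNA. The deposited scanner files come from version 9.5.1.1 of Agilent Feature Extraction, per the file headers, and hold the spot and local background intensity of each dye and processed intensity values; the deposited log10 ratio per spot is that of processed Cy5 over Cy3. The authors' deposited value table is minus that log10 ratio, so its direction is Cy3 over Cy5. It is log10, and was multiplied to the log2 scale.

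Mean signals were corrected with normexp (offset 50) on median local background followed by within-array loess with weight only on mouse microRNA spots that the scanner had not marked as outliers, in limma 3.58.1 under R 4.3.3. Outlier spots were removed (60 to 99 per array) and the 4 spots of a probe averaged. The test covered 294 of 334 probes, those with a share over 0.5 of spots well above background, in Cy3 or in Cy5, on 2 arrays or more. lmFit and eBayes ran on all 6 arrays (3 residual, 2.99 prior degrees of freedom), adjusted by Benjamini-Hochberg over the 294 probes. The number of arrays limits the precision. The limma fit alone was tested on simulated log2 ratios, which did not pass through background correction or loess.

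The members, lists and likeness rule (the 5 highest Pearson correlations) were chosen with earlier results of these data known. Named are the members, those 5 probes, probes sharing bases 2 to 7, the called list members up to 4, and miR-26a and miR-26b. Figures were drawn with matplotlib.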

Additional observations from a re-analysis of the deposited data

How the results depend on the processing

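RQ minus WT of both members stayed negative under all 16 alternatives, and was called for each in 7 of the 10 other than the fits without 1 array. It lost the call with median centring (-0.044 for miR-101a, -0.15 for miR-101b), in Cy3 alone (-0.38 and -0.31), for miR-101a in the deposited value table (-0.73), for miR-101b with loess on bright probes (-0.70), and without RQ replicate 1; leaving out each array in turn gave -1.32 to -0.93 for miR-101a and -0.98 to -0.61 for miR-101b. MI minus WT of miR-101a was called with loess on bright probes (-0.72). Median centring reversed RQ minus MI (0.16 and 0.12). The cause of these differences was not tested, beyond the amounts that loess subtracted. The replicate block, with the replicate number as a term, left the changes as they were. For miR-101a it called MI minus WT (-0.53) and RQ minus MI (-0.59), at limma adjusted p of 0.0443 and 0.0359. The labels give the replicates only a number. The correlations of same-numbered arrays' deviations were 0.18, 0.12 and 0.04. For both members the loess ratio was higher on replicate 2 than on replicate 1 in every group. Whether same-numbered arrays share more than the number was not tested. With the block 59, 39 and 38 probes were called, against 63, 46 and 32 without.

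The count of called probes in RQ minus MI was 11 with loess on bright probes, 14 with outlier spots kept and 17 with those spots kept in the loess curve only, an alternative chosen after seeing the data. MI minus WT gave 27 with the arrays of the 2 groups only. Leaving out each array in turn gave 5 to 60 calls in RQ minus WT (5 without RQ replicate 1, 40 without RQ replicate 2), 6 to 63 in MI minus WT (6 without MI replicate 1, 19 without MI replicate 2, 28 without WT replicate 1, 27 without either RQ array) and 0 to 48 in RQ minus MI (0 without either MI array or RQ replicate 2, 1 without RQ replicate 1; limma at an unadjusted p under 0.05 gave 60, 47, 58 and 53). With 1 array left in a group, that array is assumed to vary like the other groups. Leaving out an array of the group not compared gave the fit on the arrays of the 2 groups only. Where fits without 1 array are counted, these repeat that fit.

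The change of miR-101b minus that of miR-101a was 0.33, 0.21 and 0.12 in RQ minus WT, MI minus WT and RQ minus MI with loess. It was -0.11, -0.064 and -0.042 with median centring and -0.087, -0.037 and -0.049 in the deposited value table, and 0.077 and -0.038 in RQ minus WT and RQ minus MI in Cy3 alone, so its sign was not settled.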
